A study of Mus musculus with 7 samples.

Results

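9 genes of de novo lipogenesis, the synthesis of fatty acids from acetyl-CoA, were followed through 7 liver RNA-seq libraries of C57BL/6 mice. They were chosen by symbol (Srebf1, Acly, Acaca, Fasn, Me1, Elovl6, Scd1, Pnpla3 and Thrsp), and each was found on 1 of the 37468 rows of every deposited table. The study made mice that carry SunTag-dCas9 as a knock-in. In the SunTag system a Cas9 without cutting activity carries a chain of peptide tags, and the tags recruit activator proteins to the site that a guide RNA selects.

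One experiment compared wild-type liver (WT, 2 libraries) with liver of the knock-in mice (SunTag, 2 libraries). The other compared SunTag-dCas9 liver in which Myod1, the master gene of muscle identity, was activated (Myod1_active, 1 library) with its control (Myod1_control, 2 libraries). So the controls of the Myod1 experiment carry the knock-in too. The sources used here do not give how Myod1 was activated, what the control mice received, the promoter that drives the knock-in or the age of the mice, and nothing says that libraries of 1 group came from separate mice. The values are FPKM, fragment counts scaled to transcript length and library size, as the authors deposited them.

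In liver, lipogenesis turns surplus sugar into fat. Citrate leaves the mitochondrion and is split to acetyl-CoA by ATP citrate lyase (Acly), acetyl-CoA carboxylase (Acaca) makes malonyl-CoA, and fatty acid synthase (Fasn) joins these units to palmitate, using NADPH that malic enzyme (Me1) helps to supply. Elovl6 lengthens palmitate to stearate and Scd1 puts in a double bond. Srebf1 encodes SREBP1, the transcription factor through which insulin raises these genes. Pnpla3, a lipid droplet protein, and Thrsp (Spot 14), a small nuclear and cytosolic protein of lipogenic tissues, are known to follow the same feeding signals.

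4 promoters are shown because they cover the range found, from several CCAAT or GC motifs to none. Promoter sequences came from RefSeq (GRCm38.p6), 250 bases up to the base before the annotated start, and 8 of the 9 genes had an entry. Capitals mark CCAAT (the CCAAT box, which NF-Y binds) and GGGCGG (the GC box, which Sp1 binds) on either strand, so ATTGG and CCGCCC are the same motifs read from the other strand. The Fasn window lies at chr11:120824548-120824797 on the minus strand, Thrsp at chr7:97417551-97417800 on the minus strand, Acly at chr11:100528001-100528250 on the minus strand and Elovl6 at chr3:129532136-129532385 on the plus strand.
Fasn: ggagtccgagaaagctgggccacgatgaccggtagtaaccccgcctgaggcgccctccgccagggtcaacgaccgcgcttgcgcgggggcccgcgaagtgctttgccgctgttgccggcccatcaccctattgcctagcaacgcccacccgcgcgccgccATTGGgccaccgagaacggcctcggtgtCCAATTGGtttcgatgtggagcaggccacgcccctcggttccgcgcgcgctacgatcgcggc
Thrsp: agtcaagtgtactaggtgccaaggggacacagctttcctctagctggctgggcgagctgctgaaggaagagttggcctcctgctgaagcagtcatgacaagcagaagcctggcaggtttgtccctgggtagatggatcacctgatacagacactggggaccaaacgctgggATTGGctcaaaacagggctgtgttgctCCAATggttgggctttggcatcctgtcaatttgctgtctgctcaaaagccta
Acly: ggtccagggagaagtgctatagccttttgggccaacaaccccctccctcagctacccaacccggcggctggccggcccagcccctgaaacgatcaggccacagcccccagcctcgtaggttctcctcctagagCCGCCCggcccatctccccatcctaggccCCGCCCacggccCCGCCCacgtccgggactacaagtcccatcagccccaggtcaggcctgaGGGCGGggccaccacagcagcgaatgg
Elovl6: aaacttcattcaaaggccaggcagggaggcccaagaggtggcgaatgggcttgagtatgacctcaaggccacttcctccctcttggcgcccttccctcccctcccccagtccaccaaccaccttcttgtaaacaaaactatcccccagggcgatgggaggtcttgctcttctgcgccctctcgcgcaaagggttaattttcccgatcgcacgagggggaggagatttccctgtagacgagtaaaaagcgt

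The Fasn window held CCAAT motifs that began 90, 62 and 59 bases before the start, the last pair overlapping on opposite strands. In Thrsp they began 79 and 52 bases before the start. Acly held no CCAAT and GC boxes at 117, 88, 76 and 27 bases, and Elovl6 held neither motif. Over the 11 annotated start sites of the 8 genes with an entry, 6 windows had a CCAAT motif and 5 a GC box. Of 32851 RefSeq promoters of this length, 33.8% and 32.7% did. Some of these starts, such as that of Acaca, may lie inside the gene, and which of them liver uses was not tested. The E-box CACGTG and the sterol element core TCACNCCA were in 0 of the 11, against 6.02% and 3.67% of all promoters, which says only that these letters are not in these windows.

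Read counts were not analysed here, so the depth of the libraries is unknown. The width of the deposited bounds gave only a rough relative depth, between 0.945 and 1.09. Between 12979 and 13811 genes reached an FPKM of 1, and genes that span less than 300 bp took 40.0% to 57.1% of the summed FPKM. The 8 hepatocyte markers, among them Alb and Ttr, were above 0 everywhere and summed to 55239 to 90928 FPKM. The adipocyte markers Adipoq, Plin1 and Lep, which define the other main lipogenic cell, did not exceed 0.0728 FPKM in any library. The whole list of 8 summed to 17.8 to 69.7 FPKM in WT and SunTag and 2.56 to 8.43 in the Myod1 experiment, most of it Fabp4 (17.2 to 68.8 and 1.43 to 7.52), which other cell types also express. Across genes of at least 300 bp, SunTag replicate 1 correlated at 0.975 to 0.980 with the WT and other SunTag libraries, which correlated with each other at 0.989 to 0.990. Libraries of one experiment correlated with those of the other at 0.901 to 0.937.

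Of all 9 genes the desaturase Scd1 was the most abundant transcript in every library and the droplet gene Pnpla3 the least. Scd1 stood at 806 to 3390 FPKM, above at least 99.3% of the genes detected in its library, and Pnpla3 at 0.857 to 3.64 FPKM. Srebf1, Fasn, Acly and Thrsp came next, each above most detected genes wherever it was measured (94.7% at the lowest, for Thrsp). Acaca, Me1 and Elovl6 lay lower, at 8.83 to 65.6 FPKM. So the carboxylase that feeds the pathway was less abundant per length than the synthase it feeds in every library.

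**Figure D1:**
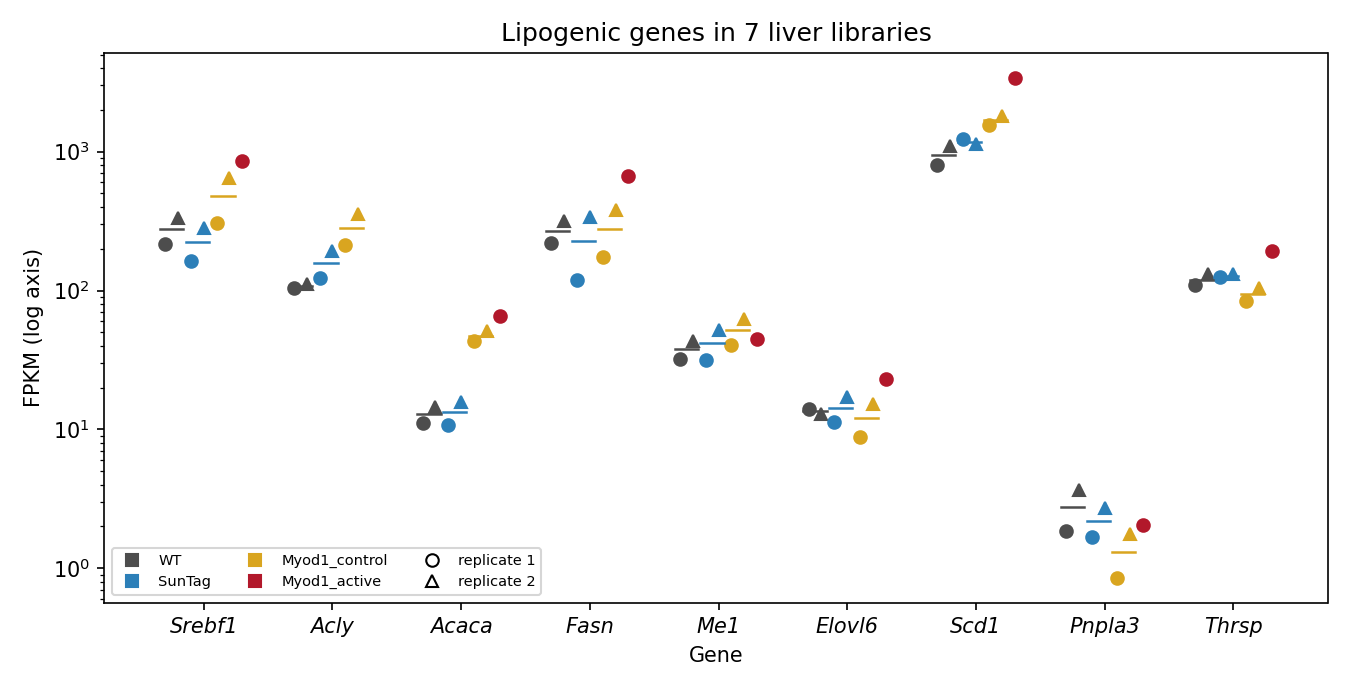
FPKM (log axis) of the 9 lipogenic genes in the 7 libraries, with circles and triangles for replicates 1 and 2 and a line at the mean of each group of 2. The Myod1_active library lies above the other 6 for Srebf1, Acaca, Fasn, Elovl6, Scd1 and Thrsp, and Acly has no value there.

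Srebf1 (chr11:60012591-60036083, mm9) read 217 and 333 FPKM in WT, 163 and 283 in SunTag, 307 and 644 in Myod1_control and 856 in Myod1_active. The activated library was the highest of the 7, and the controls of its experiment lay far apart and overlapped with WT. Group means were 275 ± 81.6 in WT, 223 ± 84.6 in SunTag and 476 ± 238 in Myod1_control (SD, n = 2 each). The table has 1 row per gene, so the SREBP1a and SREBP1c forms were not separated here, and it shares 109 bp with Rai1 (6.58 to 8.75 FPKM).

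Acly (chr11:100337667-100389314) read 104 and 112 FPKM in WT, 122 and 194 in SunTag and 212 and 353 in Myod1_control. These 3 groups did not overlap, and the order of their means was WT (108 ± 5.95), SunTag (158 ± 50.6) and Myod1_control (283 ± 99.3; SD, n = 2 each). In the activated library the row is marked as a failed estimate and listed at 0, so Acly was treated as missing there and has no comparison between activated and control liver.

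Acaca (chr11:83943174-84215153) separated the experiments most clearly. WT read 11.1 and 14.6 FPKM and SunTag 10.8 and 15.7, but Myod1_control read 43.0 and 51.4 and Myod1_active 65.6. All 3 libraries of the Myod1 experiment were above all 4 of the other, while WT (12.8 ± 2.46) and SunTag (13.3 ± 3.42) overlapped. The Acaca row spans 271980 bp and contains Gm11437 on the opposite strand, at 6.51 to 7.31 FPKM in WT and SunTag and 2.51 to 5.38 in the Myod1 experiment. Since the sources used here do not say whether strand was used, reads of both genes cannot be told apart where they overlap.

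Fasn (chr11:120667254-120685492) had the widest spread of the 9 on the log2 scale inside SunTag and inside Myod1_control. It read 220 and 317 FPKM in WT, 120 and 338 in SunTag, 174 and 380 in Myod1_control and 673 in Myod1_active. All 3 groups of 2 overlapped, and only the activated library stood outside their range. Means were 268 ± 68.3, 229 ± 154 and 277 ± 146 (SD, n = 2 each).

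Me1 (chr9:86474970-86589947), the NADPH-making malic enzyme, did not follow the activated library. It read 32.1 and 43.3 FPKM in WT, 31.7 and 52.4 in SunTag, 40.8 and 62.7 in Myod1_control and 44.9 in Myod1_active. The activated value lay between both of its controls and above both WT libraries, and the 3 groups of 2 overlapped.

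The chain-lengthening enzyme Elovl6 (chr3:129235304-129341413) read 14.0 and 13.0 FPKM in WT, 11.2 and 17.2 in SunTag, 8.83 and 15.2 in Myod1_control and 22.9 in Myod1_active. WT, SunTag and Myod1_control overlapped and the activated library was above all of them. Scd1 (chr19:44468941-44482199) read 806 and 1099 FPKM in WT, 1233 and 1128 in SunTag, 1566 and 1812 in Myod1_control and 3390 in Myod1_active. Its 4 groups did not overlap: the order was WT (953 ± 207), SunTag (1180.4 ± 74.1), Myod1_control (1689 ± 174) and the activated library (SD, n = 2 each).

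Pnpla3 (chr15:83998246-84019942) read 1.84 and 3.64 FPKM in WT, 1.68 and 2.71 in SunTag, 0.857 and 1.76 in Myod1_control and 2.03 in Myod1_active. Here WT held the highest library, and the activated one lay inside the range of WT and of SunTag. Thrsp (chr7:104561448-104566240) read 109 and 131 FPKM in WT, 125 and 131 in SunTag, 84.1 and 105 in Myod1_control and 193 in Myod1_active. For Thrsp the controls of the Myod1 experiment were the lowest libraries and the activated one the highest, whereas for Acaca and Scd1 the controls lay above the other experiment as well.

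The first comparison asked whether carrying SunTag-dCas9 by itself alters the liver transcriptome, here its lipogenic genes. None of the 9 passed: limma called 0 of 9 (adjusted p = 1 for each), 0 of 9 had an unadjusted p under 0.05, and 0.127% of all 15753 tested genes were called. Acly and Scd1 did not overlap between groups and were higher in SunTag (2 of 9), against 12.9% of all genes not overlapping in that direction. None was lower without overlap, against 12.8% of all genes.

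Acly had the largest difference toward SunTag, 1.47-fold between the means, or 0.50 ± 0.34 (SE) on the log2(FPKM + 1) scale. Each log2 difference is given with the median gene of its comparison taken off, and that gene shifted by 0.014 here, by 0.25 between Myod1_active and Myod1_control and by -0.14 between Myod1_control and SunTag. Scd1 followed with 0.31 ± 0.21, and Fasn and Srebf1 lay on the other side with -0.41 ± 0.63 and -0.34 ± 0.48. The other 5 lay between -0.22 (Pnpla3) and 0.11 (Me1). Their median was 0.029, with 6 of 9 above the median gene. The Fasn, Srebf1 and Pnpla3 differences rest on SunTag replicate 1: without it they are 0.35, 0.071 and 0.033 on the log2 scale before that shift. Pnpla3 also turned without WT replicate 2, to 0.15. On the same scale Acly went from 0.51 to 0.18 without SunTag replicate 2, and Scd1 from 0.32 to 0.10 without WT replicate 1.

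Genes around the pathway also passed in 0 cases in this comparison. Elovl3, an elongase of longer chains, read 0.132 and 0.181 FPKM in SunTag against 1.06 and 0.745 in WT. Of 16 genes from sugar to acetyl-CoA 5 lay above the median gene, with a list median of -0.16. Of 9 genes listed under NADPH supply, not all of which make NADPH themselves, 7 did, with a list median of 0.18.

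The second comparison asked what activating Myod1 changed in liver. In the activated library 7 of 8 lipogenic genes with a value lay above both controls: Srebf1, Acaca, Fasn, Elovl6, Scd1, Pnpla3 and Thrsp. The background is high, since 61.4% of 15752 tested genes lay above both controls and 16.6% below both. No lipogenic gene passed the adjusted threshold (0 of 8, while 0.254% of all genes were called), and 2 of 8, Scd1 and Thrsp, had an unadjusted limma p under 0.05 and were higher, as did 17.2% of all genes. For lower genes the count was 0 of 8, against 2.30%. With 1 activated library its spread was taken from the other groups, and the count of lipogenic genes under an unadjusted 0.05 varied with the fit.

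Fasn showed the largest difference, with 2.43 times the control mean (1.13 ± 0.77 log2, adjusted p = 0.361). Thrsp was at 2.05 times (0.78 ± 0.21, adjusted p = 0.161), Scd1 at 2.01 times (0.76 ± 0.26, adjusted p = 0.176) and Elovl6 at 1.90 times (0.67 ± 0.39, adjusted p = 0.277). The SE was small against the difference for Thrsp and Scd1 and large for Fasn. Srebf1 was at 1.80 times the control mean (0.69 ± 0.59, adjusted p = 0.407). Acaca and Pnpla3 stayed near the median gene, at 0.22 ± 0.29 and 0.17 ± 0.43, and Me1 lay below it at -0.42 ± 0.42. For Pnpla3, which is low, this depends on the pseudocount of 1. With 0.1 its difference before the median shift rose from 0.42 to 0.68, while the median gene moved from 0.25 to 0.32.

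The median over these 8 was 0.68 relative to the median gene, with 7 of 8 above that gene. It was 0.87 with replicate number added to the fit and 0.62 with median-ratio scaling. This median depends on 1 control: without Myod1_control replicate 1 it is 0.22, and 6 of 8 genes lie above the median gene. Before the median shift Srebf1 then goes from 0.94 to 0.41, Fasn from 1.38 to 0.82 and Elovl6 from 0.92 to 0.56. Among all 7 libraries the activated one was the highest for 6 of 8 genes, and it was the highest for 31.4% of 15744 genes. After each library was centred on its median gene the counts were 6 of 8 and 14.8%.

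**Figure D2:**
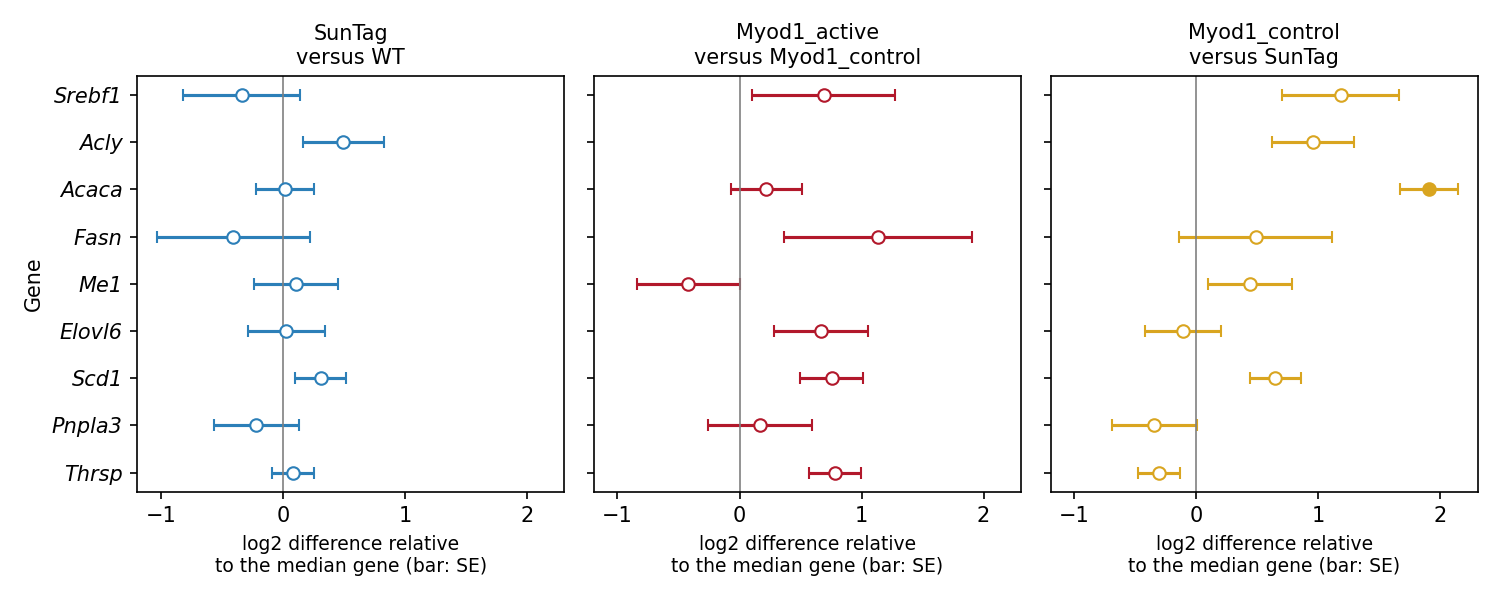
Log2 differences of the 9 lipogenic genes relative to the median gene in the 3 comparisons, with SE bars from limma. Only the filled point, Acaca between Myod1_control and SunTag, passed an adjusted p of 0.05, and Acly has no point for Myod1_active.

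Sums of cell type markers lay outside both controls for some cell types and between both for others. The hepatocyte markers summed to 55239 FPKM in the activated library and to 60352 and 65464 in its controls. Of these 8 markers, 2 lay above both controls and 5 below both. The 6 sinusoidal endothelial markers summed to 20.8 against 30.1 and 32.9, and the 5 cholangiocyte markers to 80.0 against 16.4 and 52.9. Of the cholangiocyte sum, Spp1 made up 70.6 against 9.55 and 43.2. The 8 Kupffer cell markers summed to 64.9 against 58.5 and 66.1, with 2 of 8 above both controls and 4 below both. Their part in the lipogenic values was not tested. The adipocyte markers Adipoq, Plin1 and Lep were at 0 in the activated library, and the whole list of 8 summed to 8.43 against 2.56 and 5.46, most of it Fabp4. In bulk liver, fewer cells of a type and less RNA per cell cannot be told apart.

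The regulators of lipogenic transcription passed in 0 of 14 cases and had a list median of -0.05. Insig2, which holds the SREBP precursor in the endoplasmic reticulum, read 242 FPKM in the activated library and 517 and 538 in the controls (-1.38 ± 0.20, adjusted p = 0.152). Mlxipl, which encodes the glucose-sensing factor ChREBP, read 155 against 216 and 274. Both were thus below both controls while Srebf1 was above them. Of the 14 regulators 7 lay above both controls and 3 below both, against 61.4% and 16.6% of all genes. Insig1 was among the higher ones, at 210 FPKM against 103 and 196.

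In NADPH supply 8 of 9 genes lay above both controls, where 61.4% of all genes did, 7 of 9 lay above the median gene, the list median was 0.21, and 0 passed. G6pdx, the entry enzyme of the pentose phosphate path, read 15.7 FPKM against 5.51 and 4.26 (1.26 ± 0.20, adjusted p = 0.115). Pgls, the next enzyme of that path, read 56.8 against 30.5 and 33.5 (0.56 ± 0.18). Me1, another NADPH source, did not share this placement and lay between its controls. So did Idh1 of this list, at 204 FPKM against 199 and 248.

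Sugar breakdown and side branches were mixed. Of 16 genes from sugar to acetyl-CoA, 12 lay above both controls, a share near the 61.4% of all genes, and 0 passed, with a list median of 0.12. Pklr, the liver pyruvate kinase, read 164 FPKM against 66.0 and 94.2, and Mpc1, a subunit of the mitochondrial pyruvate carrier, 157 against 86.8 and 87.6. In the accessory and elongation list (0 of 16 passed, list median -0.15) the desaturase Scd2 read 57.9 against 23.4 and 28.6, on the same side as Scd1. Elovl3 read 63.9 against 380 and 287 (-2.60 ± 0.23, adjusted p = 0.0583), opposite to Elovl6.

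Downstream of the fatty acids, 0 of 16 tested genes of triglyceride synthesis and droplets passed, and their list median was -0.07. Mogat2, a monoacylglycerol acyltransferase best known from the intestine, read 10.5 FPKM against 0.682 and 0.0687 (2.85 ± 0.35, adjusted p = 0.0890). The droplet coat gene Plin2 read 268 against 444 and 629 (-1.23 ± 0.25). So the list held values far to either side of the median gene.

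Genes of the fasted state had the lowest median of the 9 surrounding pathway lists in this comparison. Of 10 fasting response genes 6 lay below both controls and 4 above (16.6% and 61.4% of all genes), 0 passed, and the list median was -0.68. Angptl4, an inhibitor of lipoprotein lipase, read 11.2 FPKM against 69.6 and 61.3 (-2.69 ± 0.46, adjusted p = 0.155), and Pck1, a key enzyme of gluconeogenesis, 210 against 636 and 403. The insulin signalling list had a median of -0.17 (0 of 10 passed), the SREBP2 sterol targets one of 0.01 (0 of 13) and the circadian clock genes one of -0.05 (0 of 14). The sources used here give neither feeding state nor time of sampling, and their part in these values was not tested.

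**Figure D3:**
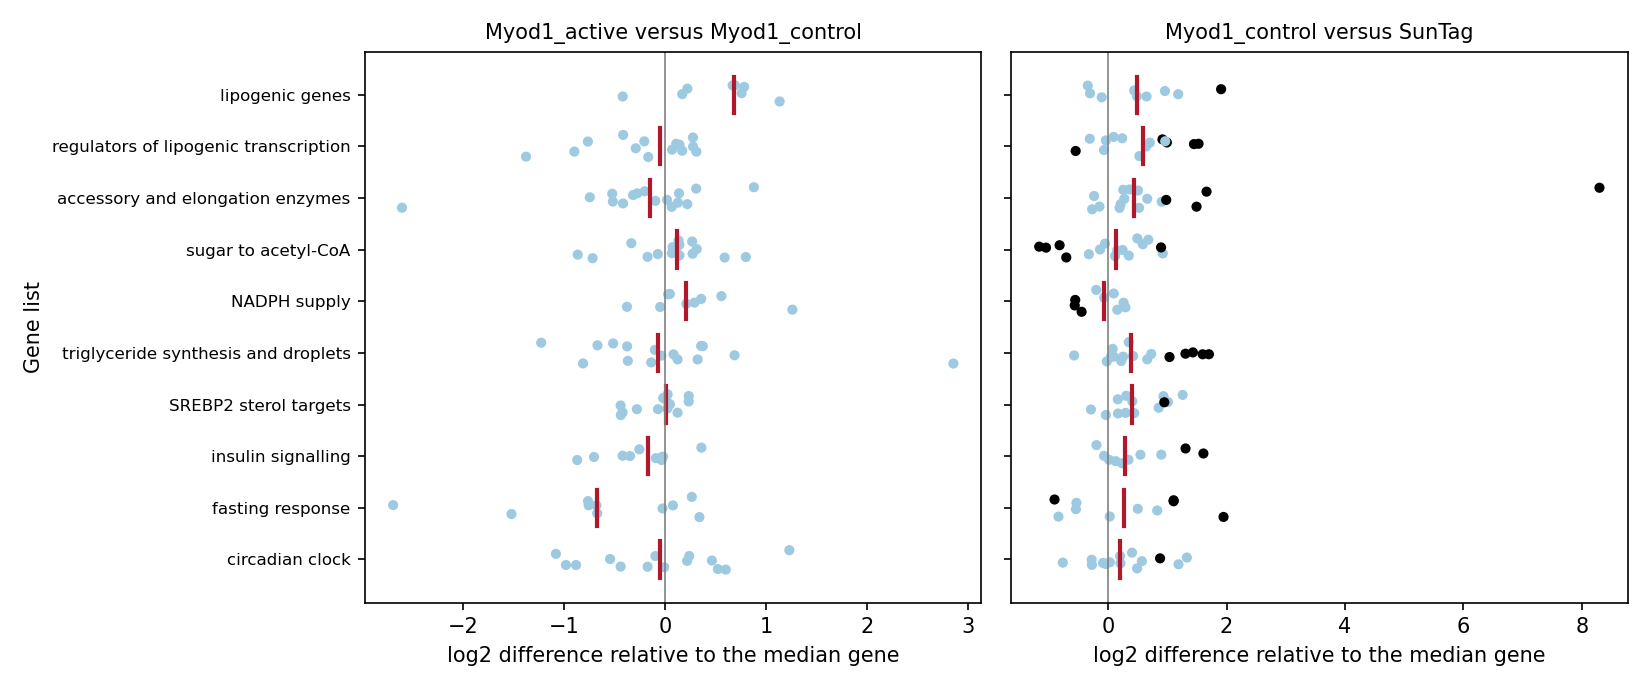
Log2 difference of each tested gene relative to the median gene, by gene list, for Myod1_active against Myod1_control and for Myod1_control against SunTag, with a red line at each list's median and black points for genes past an adjusted p of 0.05. In the first panel no point is black, the lipogenic genes have a median of 0.68 and the fasting response genes one of -0.68.

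The third comparison sets the SunTag-dCas9 controls of both experiments side by side and shares its libraries with the other comparisons. Acaca was the lipogenic gene that passed, with 3.56 times the SunTag mean in Myod1_control (1.91 ± 0.24 log2, adjusted p = 0.0191). Thus 1 of 9 was called, where 24.3% of 15753 genes were called, 7.30% higher and 17.0% lower. The Acaca call was a higher one, and 1 gene of 9 is too few to place above or below these shares. Without overlap, 4 of 9 genes (Srebf1, Acly, Acaca and Scd1) lay higher against 24.9% of all genes. Thrsp (1 of 9) lay lower without overlap against 41.6%.

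The Acaca call was lost when any of 5 libraries was left out, and kept without SunTag replicate 2 or Myod1_active replicate 1. Its adjusted p was 0.0683 without WT replicate 1, 0.0690 without WT replicate 2, 0.0543 without SunTag replicate 1, 0.0811 without Myod1_control replicate 1 and 0.0873 without Myod1_control replicate 2. It was 0.0520 when only both groups compared were fitted, and the log2 difference before the median shift stayed between 1.53 and 2.02. Over all genes the count of calls also fell then, for example from 3833 to 59 and 58 without a WT library.

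Of the genes that did not pass, Srebf1 had 2.14 times the SunTag mean (1.18 ± 0.48, adjusted p = 0.167), Acly 1.79 times (0.96 ± 0.34, adjusted p = 0.132) and Scd1 1.43 times (0.65 ± 0.21, adjusted p = 0.133). Thrsp was at 0.739 times the SunTag mean (-0.31 ± 0.17, adjusted p = 0.126). Fasn (0.49), Me1 (0.44), Elovl6 (-0.11) and Pnpla3 (-0.34) overlapped between groups. Over all 9 the median was 0.49, and 0.077 without SunTag replicate 1.

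These groups differ in more than the experiment. The transcript Xist, made from the inactive X of females, read 56.9 to 82.2 FPKM in WT and SunTag and at most 0.324 in the Myod1 experiment. The 4 Y-linked genes summed to at most 0.716 in the former and to 46.4 to 50.4 in the latter. The 8 Kupffer cell markers summed to 289 to 490 FPKM in WT and SunTag and 58.5 to 66.1 in the Myod1 experiment, and the 6 endothelial markers to 96.4 to 102 and 20.8 to 32.9. Experiment and sex cannot be told apart here, and the part of the cell markers in the Acaca value was not tested.

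In the surrounding lists, counts of called genes are read against the 7.30% of all genes called higher and 17.0% called lower in this comparison. Among 14 regulators 4 were higher in Myod1_control (Mbtps1, Mlxipl, Scap and Insig2) and 1 lower (Mlx). Mlxipl read 216 and 274 FPKM against 81.3 and 104 in SunTag (1.53 ± 0.22, adjusted p = 0.0225), and Scap, the escort of the SREBPs, 176 and 150 against 52.0 and 80.4 (1.45 ± 0.24, adjusted p = 0.0262). Mbtps1, the protease that first cuts the SREBPs, read 16.4 and 17.6 against 9.45 and 9.46 (0.92 ± 0.12, adjusted p = 0.0211).

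Among 16 accessory enzymes 4 were higher and 0 lower: Acacb, the mitochondrial carboxylase isoform, Scd2, Elovl3 and Elovl5. Acacb read 44.4 and 56.6 FPKM against 14.4 and 19.4 (1.66 ± 0.21, adjusted p = 0.0199). Elovl3 read 380 and 287 against 0.132 and 0.181 (adjusted p = 6.7e-04). The triglyceride list had 5 of 16 higher (Lpin2, Plin2, Mttp, Agpat3 and Gpam) and 0 lower, and Plin2 read 444 and 629 against 205 and 224 (1.43 ± 0.20, adjusted p = 0.0220). The names Insig2, Mlx, Elovl5, Agpat3, Gpam, Pfkl and Ppargc1a here, and Insig1 and Idh1 in the second comparison, were picked after their values were seen.

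Among sugar and NADPH genes most calls were lower ones. From sugar to acetyl-CoA 4 of 16 were lower, among them Mpc2, Mpc1 and Khk, and 1 higher (Pfkl), and Khk, the fructokinase of liver, read 236 and 263 FPKM against 503 and 638 (-1.05 ± 0.23, adjusted p = 0.0291). The NADPH supply list had 3 of 9 lower (Pgls, Taldo1 and Mdh1) and 0 higher, where 17.0% and 7.30% of all genes were called. Insulin signalling had 2 of 10 higher (Insr and Irs2), the sterol targets 1 of 13 (Dhcr7), the clock genes 1 of 14 (Tef), and the fasting response 3 of 10 higher (Cpt1a, Angptl4 and Ppargc1a) and 1 lower (Tat). Like the Acaca call, these come from a fit that lost most of its calls when a WT, a Myod1_control or the first SunTag library was left out.

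Within each group of 2, the same library was the higher one for nearly all lipogenic genes. In WT, replicate 2 was above replicate 1 for 8 of 9 genes, in SunTag replicate 2 for 8 of 9 and in Myod1_control replicate 2 for 9 of 9, whereas 39.7%, 46.5% and 46.7% of all tested genes lay higher in those libraries. Nothing in the labels says whether replicate numbers pair libraries across groups. The exceptions were Elovl6 in WT and Scd1 in SunTag. The median log2 gap of the 9 genes, relative to the median gene, was 0.47 in WT, 0.59 in SunTag and 0.61 in Myod1_control.

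Fasn had the widest gap of the 9 on the log2 scale in both SunTag (1.50) and Myod1_control (1.13), and the Srebf1 gaps in WT, SunTag and Myod1_control were 0.66, 0.80 and 1.07. Thrsp and Scd1 gaps were smaller, at most 0.32 and 0.50. For Fasn the gap between both controls, 1.13, was the same size as the difference between their mean and the activated library.

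**Figure D4:**
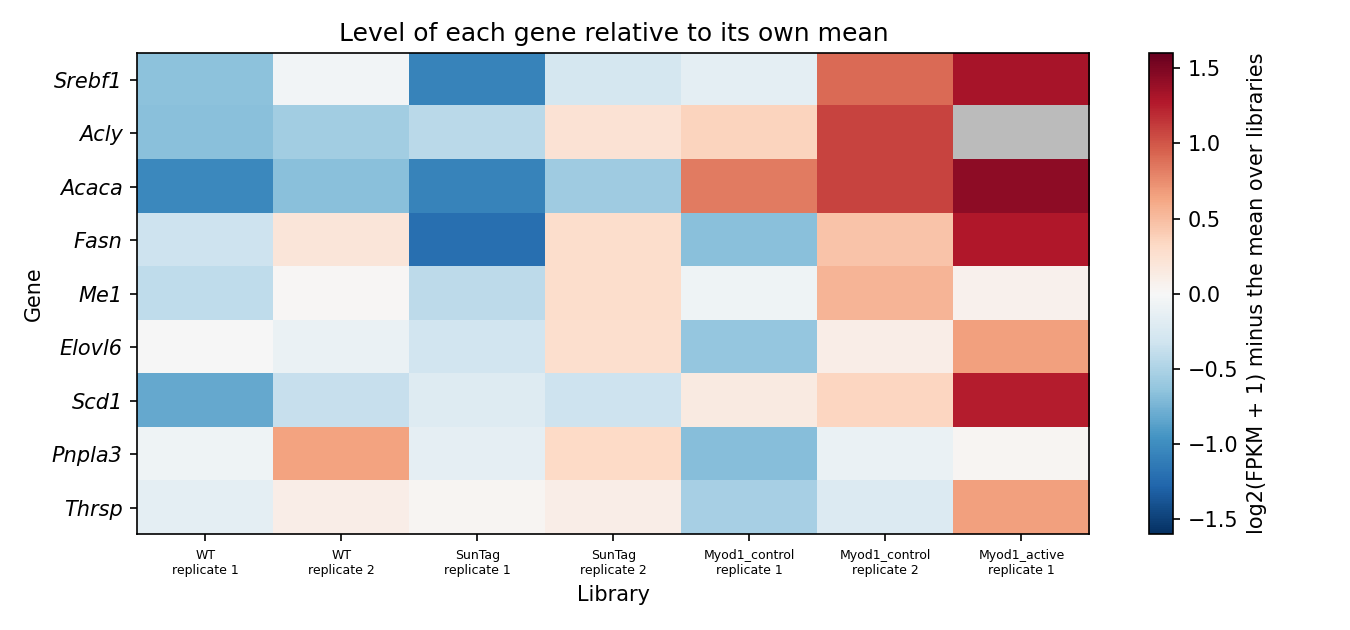
Level of each lipogenic gene in each library, as log2(FPKM + 1) minus the gene's mean over the libraries, red above and blue below the mean, grey where the estimate failed. Replicate 2 is mostly redder than replicate 1 in all 3 groups of 2, and the activated library holds the highest value for 6 of 8 genes.

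The median profile of the 9 genes, each centred on its own mean, ran from -0.41 and -0.05 in WT and -0.42 and 0.23 in SunTag to -0.16 and 0.45 in Myod1_control and 0.96 in Myod1_active. Me1 lay closest to it (mean absolute log2 distance 0.17), then Elovl6 (0.25) and Fasn (0.28), and Acaca (0.68) and Pnpla3 (0.49) lay farthest. So Acaca and Pnpla3 followed the others least over the 7 libraries. The median is set by these same 9 genes, and Me1 departed from it in the activated library, where Me1 lay between its controls. Acaca stepped up between the experiments. The highest Pnpla3 value was that of WT replicate 2, while WT and SunTag overlapped.

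Outside the list, the 5 annotated genes whose profile lay nearest to that median over the 7 libraries, of 11077 compared, were Gas7 (0.11), Kifc3 (0.12), Syt12 (0.13), Mpi (0.13) and Pdgfa (0.13). Mpi, the isomerase that links mannose and fructose phosphates, read 7.08 and 7.19 FPKM in WT, 6.19 and 8.74 in SunTag, 6.74 and 11.1 in Myod1_control and 16.7 in Myod1_active. Pdgfa, a growth factor gene, read 2.69 and 2.90, 3.05 and 3.84, 3.62 and 5.24 and then 8.68. They were picked for this likeness over 7 libraries, which is a description.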

How the data were processed

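Illumina libraries of total liver RNA were sequenced, per the labels' protocols. The submitters' processing notes name cutadapt 1.11, TopHat2 2.1.1, Cufflinks 2.2.1 and mm9. Their settings, annotation, read length and use of strand are not given in the sources used here. Values were deposited as FPKM per gene with bounds and a status, per the file headers. Read counts and library sizes were unknown. Of 63 values of the 9 genes, 28 lay outside those bounds, which were therefore not taken as errors.

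Rows without enough data (331) were left out. A failed estimate (20 values on 12 rows) was listed at 0 and set to missing, and that gene was fitted on the other libraries. Rows that share a symbol were summed. A gene was tested if it reached FPKM 1 in any library. Values were tested as log2(FPKM + 1), which understates the change of low genes, with limma 3.58.1 (R 4.3.3): 1 mean per group over all 7 libraries, a variance that follows the mean, two-sided, Benjamini-Hochberg adjustment over all genes, threshold 0.05. SE and p-values used differences before the median shift. The fit was also run on simulated data in which most genes had the same mean in every group, unlike these experiments. That run does not show how the fit performs on these data. Since separate mice are not stated, p-values measure the spread between libraries, which may be technical. No pair of libraries had more than 1 value above 0 in common, so none was counted as a copy.

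Positions of genes are on mm9, counted from 1. Promoters are on GRCm38.p6 and were matched by symbol only. Gene strands for overlaps came from the GRCm38 annotation. Scd1 had no promoter entry.

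The 9 genes and 9 surrounding lists were chosen with earlier results of these data known. Of 182 listed genes 180 had a row, and Hmgcs1 and Mvd were not analysed here. Some listed genes are not reported here by name. Named were all 9, up to 3 genes per list and comparison (called genes by adjusted p, then non-overlapping genes by size), and the 5 nearest profiles among annotated genes. Alternatives were pseudocount 0.1, no filter, a filter on the mean, median-ratio scaling, quantile normalization, no genes under 300 bp, only the groups compared, a replicate block, and each library left out. Leaving out rows with a failed estimate, and leaving out short genes together with median-ratio scaling, were added after seeing the data.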

Additional observations from a re-analysis of the deposited data

How the results depend on the processing

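In SunTag versus WT 0 of 9 and in Myod1_active versus Myod1_control 0 lipogenic genes passed under every alternative run. In Myod1_control versus SunTag the count was 1, but 2 with the replicate block (Srebf1, adjusted p = 0.0381), 2 with short genes left out and median-ratio scaling (Acly, adjusted p = 0.0490), 0 with only the groups compared, and 0 to 1 with each library left out. With each library left out, log2 differences before the median shift changed sign in SunTag versus WT for Srebf1 (-0.72 to 0.071), Acaca (-0.22 to 0.28), Fasn (-1.14 to 0.35), Me1 (-0.23 to 0.48), Elovl6 (-0.24 to 0.33), Pnpla3 (-0.56 to 0.15) and Thrsp (-0.035 to 0.23), in Myod1_active versus Myod1_control for Me1 (-0.47 to 0.14), and in Myod1_control versus SunTag for Fasn (-0.39 to 1.10), Me1 (-0.049 to 0.66) and Elovl6 (-0.60 to 0.12). The median of the lipogenic genes ranged from -0.25 to 0.28 in SunTag versus WT, from 0.22 to 0.90 in Myod1_active versus Myod1_control and from 0.077 to 0.78 in Myod1_control versus SunTag. Under alternatives that leave out no single library, 254 values of single genes kept direction and side of the threshold. Calls over all genes ranged more widely: 20 in SunTag versus WT (5 without short genes, 31 with only the groups compared, 23 to 79 with 1 library left out), 40 in Myod1_active versus Myod1_control (253 without the filter, 23 with pseudocount 0.1, 20 without short genes, 9 with scaling as well, 0 with only the groups compared, 49 to 119 with 1 library left out; at an unadjusted p under 0.05, 3067 by the limma fit reported and 2425 with only the groups compared), and 3833 in Myod1_control versus SunTag (255 with only the groups compared, 58 to 4073 with 1 library left out). Median-ratio scaling turned its 1150 higher and 2683 lower calls into 1736 and 1846.

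The replicate block gave Me1 a log2 difference of 0.12 in Myod1_active versus Myod1_control (adjusted p = 0.734) and 23 genes called in place of 40. Deviations of same-numbered libraries correlated at 0.04, 0.03 and 0.00076 across genes, so no pairing showed over all genes. These values cannot tell whether a pairing acts on few genes, such as the lipogenic ones. Depth cannot be read from FPKM, and 1 activated library and groups of 2 limit every test.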

Other observations

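The 9 lipogenic genes took 0.193% and 0.259% of the FPKM summed over genes of at least 300 bp in WT, 0.219% and 0.272% in SunTag, 0.325% and 0.479% in Myod1_control and 0.699% in Myod1_active, the last without Acly. Scd1 is the largest part of each sum. Scd1 and Thrsp were outside their own deposited bounds in all 7 libraries, and Acaca, Me1, Elovl6 and Pnpla3 in none.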
